A study of Homo sapiens with 6 samples.

Results

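The probes described here were the 300 brightest of the 23042 custom probes for long noncoding RNAs on a 1-colour Agilent array, called bright probes below. They were chosen by their mean log2 processed signal over all 6 arrays of the series, so that the choice used brightness and no difference between groups. The array held 57176 probes in all, of which 34134 came from the Agilent catalogue and mostly represent protein-coding genes. RNA came from RPMI8402 cells, a long-established line from a human T-cell acute lymphoblastic leukaemia that the labels also spell RMPI8402. The lentivirus they were transduced with carried a short hairpin RNA to GATA3 (shGATA3) or to TCF1 (shTCF1), the product of the gene TCF7. Control cells received a control short hairpin RNA, per the study's methods. Below, hairpin arrays and hairpin groups mean shGATA3 and shTCF1 only. All 3 groups were sorted for EGFP, which marks transduced cells, 48 h after transduction, so the control cells had also been infected and sorted. Each group had 2 arrays, which the study describes as independent experiments, made from 100 ng of total RNA per sample. The groups model the cells of 1 line and not normal thymocytes, and the study's methods list 1 GATA3 hairpin vector.

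Long noncoding RNAs are transcripts that carry no long open reading frame and that work, where a role is known, as RNA. Some scaffold nuclear bodies, some recruit proteins to chromatin, and some serve mainly as hosts whose introns release small nucleolar RNAs (snoRNAs). Most are present in few copies per cell and are more restricted to cell types than messenger RNAs, and in T-cell leukaemia several are known targets of Notch.

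The labels were checked first. TCF7, whose protein TCF1 is a T-lineage transcription factor, gave 13.96 and 13.91 in control, 14.26 and 14.27 in shGATA3 and 12.58 and 12.68 in shTCF1, in log2 after variance stabilizing normalization (VSN level below). It was thus lower with shTCF1 by 1.31 (difference -1.31, SE 0.0981, adjusted p 0.00394). GATA3, the transcription factor of T-lineage commitment, gave 9.54 and 9.56 in control and 9.46 and 9.55 in shGATA3, a difference of -0.05 (SE 0.10) at an adjusted p of 0.795. The groups overlapped, and the label shGATA3 is used here without a lower GATA3 transcript on the array behind it. Of 14 T-lineage markers 12 were tested, and their summed VSN level lay between 16.26 and 17.02 on all arrays. The sums were 10.95 to 12.41 for B-lineage markers, 7.95 to 8.13 for myeloid and 8.93 to 9.52 for erythroid markers, of which 3 each were tested.

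All 6 arrays lay on 1 slide and were scanned together, and between 51.0% and 56.2% of the probes of each array stood well above its background. The 75th percentile of the intensity was 271 and 290 on the control arrays against 166 to 179 on the hairpin arrays. The control arrays also sat in row 2 of the slide and the hairpin arrays in row 1. Row, brightness of the array and the difference between control and hairpin therefore cannot be told apart.

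Of the 300 bright probes 169 (56.3%) carried the name of an Ensembl transcript and 124 (41.3%) a TCONS number, the form in which a transcript assembler names its models. Among all custom probes these shares were 53.9% and 45.9%. A further 4 had no transcript name, against 21 of all 23042 custom probes, and 3 were named for the known RNAs SNHG5, NEAT1 and SNAR-A1. The probes held 309 transcript names, 13 of them carried 2 names, and 11 joined an Ensembl with a TCONS name. No name stood on more than 1 bright probe. Only 3 of the 300 could be given a gene symbol through RefSeq accessions, so the rest are called by the names in the files.

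SNHG5 ranked 31st, and it is 1 of the 3 bright probes given a symbol through RefSeq accessions. SNHG5 is a snoRNA host gene of the family whose transcripts begin with a run of pyrimidines, the 5′ terminal oligopyrimidine (TOP) tract that links translation to growth signals. Its promoter is shown to let this start be read, from 250 bases before to 50 bases after the start, at chr6:85678684-85678983 of GRCh38.p14 on the minus strand, written 5′ to 3′ with 2 motifs in capitals.
SNHG5 promoter: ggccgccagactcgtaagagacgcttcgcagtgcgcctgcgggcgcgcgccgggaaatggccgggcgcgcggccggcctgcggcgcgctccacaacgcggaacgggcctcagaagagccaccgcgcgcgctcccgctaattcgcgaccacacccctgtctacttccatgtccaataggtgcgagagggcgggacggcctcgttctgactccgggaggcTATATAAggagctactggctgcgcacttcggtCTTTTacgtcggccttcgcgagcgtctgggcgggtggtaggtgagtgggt
The first capitals are TATATAA, found at position -32, and the second are CTTTT, found at position 1, the annotated start. On either strand TATATAA occurred in 2.57% and CTTTT in 48.9% of the 35116 promoter windows of this length.

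The bright probes had mean log2 processed signals from 10.49 to 17.09, with a median of 12.01, against a median of 2.75 over all custom probes. The 24449 catalogue probes for messenger RNAs (accessions beginning with NM_) had a median of 7.04 and a highest value of 18.55. Of these messenger RNA probes 4289 (17.5%) were at least as bright as the dimmest bright probe, 1979 (8.09%) as bright as the median one and 56 as bright as the brightest. Brightness also depends on how well each probe binds and labels, so these ranks order probes and not transcript abundance. On each array the 300 probes held 71.1% to 73.7% of the summed signal of all custom probes, and the 10 brightest held 17.1% to 21.1%. At the limit of the choice, TCONS_00014481, ENST00000555578 and TCONS_00019910 lay inside at 10.50, 10.50 and 10.49. Just outside were ENST00000255183 at 10.49, TCONS_00022046 at 10.49 and, at 10.48, a custom probe named for the messenger RNA of p53, so by name the custom probes were not all noncoding.

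The 10 brightest probes were 7 TCONS and 3 Ensembl transcripts. TCONS_00007197 was the brightest, at VSN levels of 16.81 and 16.64 in control, 17.22 and 17.06 in shGATA3 and 17.39 and 17.44 in shTCF1. TCONS_00006556 followed at 16.77 and 16.72, then 17.06 and 16.97, then 17.06 and 17.12. Both were lowest on the control arrays after VSN, though neither difference of TCONS_00006556 from control was called (adjusted p 0.152 and 0.0624). Before scaling between arrays, its processed signals were highest in control, at 17.12 and 17.21 against 16.80 to 16.90 on the hairpin arrays. Those of TCONS_00007197 were 17.17 and 17.12 in control, 17.01 and 16.88 in shGATA3 and 17.22 and 17.15 in shTCF1. The next were TCONS_00000605 and TCONS_00000095, both with a mean processed signal of 16.34, TCONS_00007198 at 16.30, ENST00000400768 at 15.99 and TCONS_00019152 at 15.49. ENST00000514608, TCONS_00009003 and ENST00000414075 closed the list at 15.40, 15.34 and 15.28. Neighbours in this order from the third to the fifth place differed by less than 0.05 in mean processed signal. The 2 control arrays differed by more than that for TCONS_00000605 (processed signals 16.52 and 16.41).

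The 3 probes named for known RNAs had no call in any comparison. NEAT1, the RNA on which nuclear paraspeckles assemble, gave VSN levels of 12.95 and 12.79 in control, 12.78 and 12.57 in shGATA3 and 12.86 and 12.78 in shTCF1. SNAR-A1, a small RNA of a multi-copy family bound by the protein NF90, gave 13.93 and 13.88, then 14.05 and 13.77, then 14.17 and 14.09, and near-identical copies cannot be told apart by 1 probe. NEAT1 arrays of shTCF1 and control overlapped, and those of shGATA3 lay just below control (difference -0.20, adjusted p 0.351). SNAR-A1 arrays of shGATA3 and control overlapped, and those of shTCF1 lay above both (difference from control 0.22, adjusted p 0.263). The SNHG5 probe was not tested because its spot was marked as an outlier on the first shTCF1 array, where its log2 processed signal was 13.65, the lowest of the 6. The other arrays gave 14.67 and 14.86 in control, 14.17 and 14.65 in shGATA3 and 14.23 in the second shTCF1 array. A catalogue probe for SNHG5 gave 15.25 and 15.21 in control, 15.22 and 15.65 in shGATA3 and 15.08 and 15.38 in shTCF1, with differences from control of 0.20 (adjusted p 0.511) and -0.004 (adjusted p 0.990).

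In the other 3 untested cases, ENST00000562535, ENST00000452840 and ENST00000553758, the second shGATA3 array was marked. The remaining 296 bright probes were tested, and all 296 were well above background on all 6 arrays. Between the 2 arrays of a group they differed by a median of 0.0571 in control, 0.140 in shGATA3 and 0.107 in shTCF1. The widest gap was that of TCONS_00025825, with 13.71 and 12.56 on the control arrays. In total RNA from sorted cells, less RNA per cell and fewer cells of a kind cannot be told apart in any of the differences that follow.

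The first comparison asked how the arrays labelled shGATA3 differed from control. Of the 296 bright probes 32 (10.8%) were called at an adjusted p below 0.05, against 6.84% of all 31131 probes tested. They were 24 higher and 8 lower, where 2.88% of all probes tested were called higher and 3.96% lower. Among 4193 messenger RNA probes of the same range of brightness 5.32% were called, 135 higher and 88 lower, so more higher than lower calls were also found there. Most bright probes moved little, 250 of 296 (84.5%) by less than 0.5 on the log2 scale, and their median difference was 0.002 against -0.011 over all probes tested. The arrays of the 2 groups did not overlap for 201 bright probes (67.9%), against 60.2% of all probes tested. The smallest difference called was 0.46.

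The largest rise was that of TCONS_00029068, with VSN levels of 9.44 and 9.90 in control, 11.23 and 11.59 in shGATA3 and 11.42 and 11.62 in shTCF1. It was 3.34-fold higher in shGATA3 than in control (difference 1.74, SE 0.20, adjusted p 0.0111). This probe was dim in control only, and its mean over all arrays put it at rank 258. ENST00000370292/ENST00000415810 followed, with 14.53 and 14.64 in control and 15.57 and 15.74 in shGATA3 (difference 1.07, SE 0.11, adjusted p 0.00895). ENST00000356911/ENST00000439173 gave 14.68 and 14.66 in control and 15.67 and 15.79 in shGATA3 (difference 1.06, SE 0.11, adjusted p 0.00755). Both sat at 14.27 to 14.43 in shTCF1, below control. ENST00000456949 rose by 0.93 (adjusted p 0.00892) and ENST00000502999 by 0.91 (adjusted p 0.0102).

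The largest falls were smaller. ENST00000509893 gave 10.92 and 10.91 in control and 9.94 and 10.02 in shGATA3, 1.91-fold lower (difference -0.93, SE 0.11, adjusted p 0.0105). TCONS_00014481 gave 10.80 and 10.83 in control and 9.92 and 9.93 in shGATA3 (difference -0.89, SE 0.10, adjusted p 0.0110). In both the arrays of each group lay close together beside the difference. TCONS_00021002 fell by 0.75 (adjusted p 0.0238) and TCONS_00014538 by 0.73 (adjusted p 0.0185). ENST00000514608, eighth in brightness, fell by 0.67, from 15.59 and 15.54 to 14.97 and 14.82 (adjusted p 0.0362), the only 1 of the 10 brightest called in this comparison.

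Of these 10 probes only ENST00000356911/ENST00000439173 kept its call whichever of the 6 arrays was omitted. For the others the highest adjusted p in those fits lay between 0.0588 and 0.178. The count of 32 became 2 without the first control array, 6 without the second, 14 without the first shGATA3 array, 3 without the second, and 19 without either shTCF1 array.

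Among the brightest probes called higher in shGATA3 were 6 between ranks 16 and 30. These limits were set after the values were seen and begin and end at called probes, so the 6 of 15 is a description, beside 2.88% of all probes tested called higher. None of the 15 was called in shTCF1 against control, beside 16.9% of all probes tested, which is again a description of ranks chosen after the fact. Besides the 2 probes with double names above these were ENST00000419668, ENST00000435695, ENST00000424523 and ENST00000452050, of which the last 3 were chosen after their values were seen. On the control arrays the 6 lay between 14.26 and 14.68, on the shTCF1 arrays between 14.09 and 14.64, and on the shGATA3 arrays between 14.95 and 15.79. For each of the 6, both shGATA3 arrays lay above all 4 others. Their differences from control ran from 0.75 to 1.07 in shGATA3, with the highest adjusted p at 0.0205, and from -0.30 to -0.06 in shTCF1, with adjusted p from 0.104 to 0.746. The other 9 probes of these ranks differed from control by -0.16 to 0.49 in shGATA3. Before scaling, the processed signals of ENST00000435695 and ENST00000452050 overlapped between shGATA3 and control. Those of the rest of the 6 were higher in shGATA3.

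For 2 of the 6 the catalogue held a probe for the same Ensembl transcript, a measure that played no part in the choice. The catalogue probe of ENST00000419668 gave 14.41 and 14.50 in control, 15.21 and 15.40 in shGATA3 and 14.38 and 14.40 in shTCF1. It was higher in shGATA3 than in control by 0.85 (SE 0.11, adjusted p 0.0153), against 0.84 for the custom probe. The catalogue probe of ENST00000452050 gave 14.06 and 14.15, then 14.76 and 14.82, then 13.79 and 14.05, with a difference of 0.69 (SE 0.12, adjusted p 0.0337) against 0.75. In both cases 2 probes for 1 transcript moved alike. They read the same RNA samples on the same arrays, and whether their sequences overlap was not tested.

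Other catalogue probes for the same transcripts moved with their partners less evenly. ENST00000400768, sixth in brightness, had 2 catalogue probes, 1 as bright as itself with differences of 0.45 (shGATA3, adjusted p 0.0581) and 0.59 (shTCF1, adjusted p 0.0193), where the custom probe gave 0.44 and 0.57. The other catalogue probe lay at VSN levels of only 6.95 to 7.47, with differences of 0.32 and 0.29. For ENST00000381105 the custom probe lay at 10.58 to 10.99 and the catalogue probe at 17.44 to 18.00. In shTCF1 the catalogue probe was higher than control by 0.46 (adjusted p 0.0386) while the custom probe differed by 0.12 (adjusted p 0.485). Levels of 2 probes for 1 transcript name thus lay up to several log2 units apart on the same array.

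The second comparison set shTCF1 against the same control arrays, so control values are shared with the first. Of the 296 bright probes 74 (25%) were called, 54 higher and 20 lower, against 16.9% of all probes tested and 12.6% of messenger RNA probes of the same brightness. Over all probes tested 7.21% were called higher and 9.73% lower, the reverse order. More higher than lower calls were not particular to the bright probes, since messenger RNA probes of the same brightness had 310 higher and 217 lower calls and the other 7429 custom probes tested had 665 and 505. Their median difference was 0.034 against -0.020 over all probes, and it was -0.001 with quantile normalization and -0.003 after another background correction (normexp) with quantile normalization. With arrays centred on the median of catalogue probes, 70 of 79 called bright probes were higher, a scaling that moved the median of all probes tested from -0.020 to 0.098, and with normexp 79 of 128. TCONS transcripts made up most of the calls, with 43 of 124 (34.7%) called, 29 higher and 14 lower, against 30 of 166 Ensembl transcripts (18.1%), a difference that was not tested. The arrays did not overlap for 237 bright probes (80.1%), against 66.9% of all probes tested.

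TCONS_00029068, whose array values are given above, was 3.60-fold higher in shTCF1 than in control (difference 1.85, SE 0.20, adjusted p 0.00724). TCONS_00012627 gave 11.90 and 12.13 in control and 13.29 and 13.44 in shTCF1 (difference 1.35, SE 0.22, adjusted p 0.0158). The shGATA3 arrays lay between them at 12.54 and 13.16, a wide gap within the group. ENST00000472913 rose from 10.38 and 10.73 to 11.74 and 11.96 (difference 1.29, SE 0.16, adjusted p 0.00868). ENST00000417692/TCONS_00002891 rose from 12.26 and 12.28 to 13.57 and 13.44 (difference 1.23, SE 0.10, adjusted p 0.00453). TCONS_00022270 rose from 11.06 and 11.16 to 12.24 and 12.31 (difference 1.16, SE 0.18, adjusted p 0.0143). In all 5 both shTCF1 arrays lay above both control arrays by more than the spread within either group. Of 10 bright probes called with a difference of at least 1, 9 were higher.

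The exception was TCONS_00028248, the largest fall of any bright probe. It gave 13.35 and 13.28 in control, 12.75 and 12.76 in shGATA3 and 11.81 and 11.64 in shTCF1. It was 3.01-fold lower in shTCF1 than in control (difference -1.59, SE 0.11, adjusted p 0.00360) and 1.47-fold lower in shGATA3 (difference -0.56, SE 0.11, adjusted p 0.0393). The shTCF1 arrays lay lowest and the control arrays highest. The call in shGATA3 was lost in each of the 6 fits with 1 array omitted (adjusted p up to 0.208) and held under only 1 of 4 other scalings. ENST00000506247 fell by 0.92 (adjusted p 0.0179), ENST00000464767 by 0.79 (adjusted p 0.0147), TCONS_00021002 by 0.65 (adjusted p 0.0209) and ENST00000445107 by 0.60 (adjusted p 0.0418), the last called under only 1 of 4 other scalings (adjusted p up to 0.0781). TCONS_00021002 gave 11.37 and 11.21 in control, 10.63 and 10.46 in shGATA3 and 10.60 and 10.69 in shTCF1, so that both hairpin groups lay below control and near each other.

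Among the 10 brightest probes 4 were called in shTCF1, all higher, where 16.9% of all probes tested were called and 7.21% called higher. They were TCONS_00007197 (difference 0.69, adjusted p 0.0179), TCONS_00000095 (0.59, adjusted p 0.0197), TCONS_00000605 (0.58, adjusted p 0.0265) and ENST00000400768 (0.57, adjusted p 0.0239). Before scaling between arrays, the processed signals of TCONS_00000605 were 16.52 and 16.41 in control and 16.44 and 16.37 in shTCF1. Those of TCONS_00000095 were 16.48 and 16.47, then 16.44 and 16.39. Those of ENST00000400768 were 15.99 and 16.15 in control, with both shTCF1 arrays between them. For these 3 probes the rise was thus seen only after scaling, and the groups of TCONS_00007197 overlapped before it. Scaling lowered the control arrays and raised the hairpin arrays, so other called rises of this size can depend on it. ENST00000520375 (0.58, adjusted p 0.0494) gave 14.21 and 14.41, then 14.19 and 14.28 before it. The larger rise of TCONS_00000604 (0.95) was also seen before it. The 4 called among the 10 brightest kept the call in only 2 of the 6 fits with 1 array omitted, and the 3 TCONS probes also lost it under at least 1 other scaling.

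Of the 10 probes with the largest differences, TCONS_00029068, ENST00000472913, ENST00000417692/TCONS_00002891 and TCONS_00028248 were called in each of the 6 fits without 1 array. For the other 6 the highest adjusted p in those fits lay between 0.0723 and 0.156. The count of 74 became 11 without the first control array, 13 without the second, 71 without either shGATA3 array, 23 without the first shTCF1 array and 18 without the second.

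Compared directly with shTCF1, the arrays labelled shGATA3 differed in 22 of 296 bright probes (7.43%), close to the 6.18% of all probes tested and above the 4.60% of messenger RNA probes of the same brightness. They were 11 higher and 11 lower, against 3.58% and 2.6% of all probes tested, and the arrays did not overlap for 182 bright probes (61.5%) against 52% of all probes tested. The median difference was -0.056, and 263 bright probes (88.9%) lay within 0.5 of no difference. The 2 double-named probes described above led the rises, ENST00000356911/ENST00000439173 with a 2.58-fold difference (1.37, SE 0.11, adjusted p 0.00266) and ENST00000370292/ENST00000415810 with a 2.52-fold one (1.33, SE 0.11, adjusted p 0.00333). TCONS_00028248 was higher in shGATA3 than in shTCF1 by 1.03 (adjusted p 0.00618), TCONS_00023546 by 0.99 (adjusted p 0.00864) and ENST00000419668 by 0.94 (adjusted p 0.0111). TCONS_00023546 gave 11.54 and 11.50 in control, 12.21 and 12.16 in shGATA3 and 11.08 and 11.31 in shTCF1, so its 2 hairpin groups lay on opposite sides of control. Against control its rise in shGATA3 was called (0.67, adjusted p 0.0301) and its difference in shTCF1 was not (-0.33, adjusted p 0.103).

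Lower in shGATA3 than in shTCF1 were TCONS_00014481 (difference -0.86, adjusted p 0.0100), ENST00000514608 (-0.85, adjusted p 0.0176), ENST00000509893 (-0.83, adjusted p 0.0116), ENST00000445600 (-0.79, adjusted p 0.0249) and TCONS_00014538 (-0.77, adjusted p 0.0143). ENST00000445600 differed from the other 4 in its place against control. It gave 11.83 and 11.82 in control, 11.84 and 11.59 in shGATA3 and 12.41 and 12.60 in shTCF1, so that shTCF1 was the group that stood apart. The other 4 lay lowest in shGATA3, with the means of control and shTCF1 at most 0.19 apart.

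Called in each of the 6 fits without 1 array were ENST00000356911/ENST00000439173, ENST00000370292/ENST00000415810 and TCONS_00028248. The count of 22 became 14 without either control array, 11 without the first shGATA3 array, 3 without the second, 9 without the first shTCF1 array and 8 without the second. With normexp and quantile normalization 24 of 63 called bright probes were higher, against 11 of 22 here.

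Transcript assemblers commonly number models in order, so that following numbers can belong to 1 locus, although no positions were used here. Among the 135 TCONS numbers on bright probes, 44 probes fell into 17 runs of directly following numbers, 6 runs of 3 or more and 11 of 2. The longest run was TCONS_00017337 to TCONS_00017342, 6 probes with mean signals of 13.57 to 13.92. All 6 had lower means in shTCF1 than in control, by differences of -0.54 to -0.31. Of these 4 were called, where 9.73% of all probes tested were called lower. In shGATA3 their differences were -0.21 to -0.04 and none was called (lowest adjusted p 0.227), against 6.84% of all probes tested. The probes of this run therefore lay close together in level and in difference. Whether they read 1 RNA was not tested, so their calls are not separate counts. Other runs named below are examples out of the 17.

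TCONS_00022270 to TCONS_00022272 were called higher in shTCF1 in all 3 cases, by 1.16, 1.04 and 1.03, at mean signals from 11.72 to 13.57. In shGATA3 they differed from the same control arrays by 0.67, 0.55 and 0.52, of which the latter 2 were called. The number before them on the array, TCONS_00022269, lay at 1.94, and the number after, TCONS_00022273, at 7.92. Both were dimmer than the run, but the latter lay above the median of 2.75 over all custom probes. Neighbours of other runs ranged from dim, as TCONS_00007195 at 1.81, to near the limit, as TCONS_00017343 at 10.06 and TCONS_00023381 at 10.20. TCONS_00025707 to TCONS_00025709 gave differences of -0.52, -0.55 and -0.56 in shTCF1, the last 2 called, and -0.52, -0.53 and -0.53 in shGATA3, none called. TCONS_00016857 and TCONS_00016858 were both called higher in shTCF1, by 0.61 and 0.69. Beside the calls of these runs, 7.21% of all probes tested were called higher and 9.73% lower in shTCF1. In shGATA3 these shares were 2.88% and 3.96%.

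TCONS_00023382 to TCONS_00023384 stayed within 0.07 of control in both hairpin groups, at mean signals of 12.82 to 12.94. Some runs held unlike probes. TCONS_00029068 rose by 1.85 in shTCF1 while its neighbour TCONS_00029069, with the brighter signal, differed by 0.48 (adjusted p 0.0568). TCONS_00016925 rose by 0.79 in shTCF1 while TCONS_00016926 differed by -0.34 (adjusted p 0.0629). The brightest probe of all, TCONS_00007197, stood in a run with TCONS_00007196 and TCONS_00007198, and only its own difference in shTCF1 was called.

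In bins of 0.5 of mean signal, 39 bright probes (13%) lay between 13.5 and 14, against 17 in the bin below and 7 in the bin above. Many probes near this peak had nearly the same level on every array. When probes were grouped so that all 6 VSN levels of a group lay within 0.3 of each other, a grouping chosen after the levels were seen, the largest group held 13 Ensembl transcripts and the second 11 probes. The first had ranks from 50 (ENST00000416970) to 73 (ENST00000436285). It spanned 13.55 to 13.76 on the first control array and 13.57 to 13.86 on the second shTCF1 array. No probe of it was called in any comparison. Of all probes tested 6.84% were called in shGATA3 against control, 16.9% in shTCF1 against control and 6.18% in shGATA3 against shTCF1. The second held 5 of the 6 probes of the run from TCONS_00017337, together with TCONS_00016926, ENST00000429829 and all 4 probes without a transcript name. It spanned 13.68 to 13.91 on the first control array and 13.32 to 13.50 on the second shTCF1 array. Of its 11 probes 4 were called lower in shTCF1, against 9.73% of all probes tested. The 4 probes without a name, CUST_286, CUST_3006, CUST_4492 and CUST_4979, lay between 13.32 and 13.81 on all arrays. Whether probes of a group bind the same RNA was not tested.

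Catalogue probes also covered lists of known noncoding RNAs and snoRNA host genes outside the custom set. Not all listed genes are of the class of the custom probes, since TAF1D also codes for a protein and RMRP is a short RNA. Of 32 listed snoRNA host genes and TOP noncoding RNAs 22 were tested, all 22 well above background on all arrays. In shGATA3 none was called, against 6.84% of all probes tested, and in shTCF1 only MIR22HG was called (0.57 higher, adjusted p 0.0168), against 16.9%. Their median differences were -0.085 and -0.063, and their summed VSN level lay between 18.07 and 18.28 on every array. GAS5, which accumulates when growth stops, gave 15.31 and 15.40 in control, 15.15 and 15.40 in shGATA3 and 15.16 and 15.42 in shTCF1. Of 15 tested RNAs listed as nuclear or chromatin-associated, 1 was called higher and 1 lower in shGATA3 and 2 higher and 4 lower in shTCF1, with medians of -0.043 and -0.279. The lower call in shGATA3, and 1 of the 4 in shTCF1, was NORAD, which is known mainly from the cytoplasm. Of 7 microRNA host genes tested 1 was called lower in shGATA3, and 1 higher, again MIR22HG, and 1 lower in shTCF1. Of 13 tested RNAs described in lymphocytes and leukaemia, 1 was called lower in shGATA3, and 1 higher and 3 lower in shTCF1. No list was tested against another. These lists were drawn up with earlier results of the same data known.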

How the data were processed

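Per the file headers, the authors' scanner files held intensity values from Agilent Feature Extraction 10.7.1.1 (the submitters' notes give version 9.1; background-subtracted processed signal, raw median signals and local background, and marks for spots well above background or outlying), without scaling between arrays. The design's annotation named hg19. A deposited matrix of log2 values came from the authors too, described in their methods as VSN-normalized, whose scale and centring are not given in the sources used here. It served as an alternative only.

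Control spots and 71 probes with an outlier mark were left out, spots of a probe were averaged, and intensities were normalized with the VSN model, rewritten in R 4.3.3 (trimming quantile 0.9, 7 iterations, 5 strata). The 31131 probes that stood well above background in both samples of 1 or more groups were tested in 1 limma 3.58.1 fit over 6 arrays (lmFit and eBayes, two-sided, group only, 3 residual and 2.97 prior degrees of freedom), with Benjamini-Hochberg adjustment over all of them and a call below 0.05. The lowest two-sided p of an exact permutation test of 2 against 2 arrays is 0.333, so calls rest on the spread limma pools over probes. The number of arrays limits the precision.

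Named were the 10 brightest probes, the 5 largest rises and falls called per comparison without overlap of groups, 3 probes on either side of the limit, known noncoding RNAs, GATA3 and TCF7. The bright probes and all lists were chosen with earlier results of these data known. Symbols came from RefSeq tables (GRCh38.p14). Probe sequences were not used here. Alternatives covered scaling, background, filter, prior, replicate block, each array left out and the choice of probes.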

Additional observations from a re-analysis of the deposited data

How the results depend on the processing

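With 2 arrays per group the counts of called bright probes depended on single arrays, as the ranges show when each array was left out in turn: 2 to 19 for shGATA3 against control (32 with all arrays), 11 to 71 for shTCF1 against control (74) and 3 to 14 for shGATA3 against shTCF1 (22). In the same order, counts were 85, 128 and 63 with normexp and quantile normalization, 71, 116 and 60 with an intensity trend in the prior, 7, 33 and 12 without a filter on dim probes, where more probes were tested, and 61, 177 and 44 over the 600 brightest custom probes. With the replicate number as a block they were 19, 55 and 14. The numbers were taken as names only, since deviations of same-numbered arrays correlated at -0.040, -0.010 and 0.049, and the blocked fit has fewer residual degrees of freedom. All 3 counts stayed within 1.5 times under scaling by the 75th percentile, quantile normalization and centring on catalogue probes. The same held for a filter on all 6 arrays, for choice by VSN mean and for keeping outlier-marked spots. The last was chosen after seeing the data. Keeping 1 probe per transcript could not change the counts, since no name stood on more than 1 bright probe.

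The deposited matrix gave counts of 0, 0 and 0 in limma, with 17, 16 and 21 bright probes at an unadjusted p below 0.05. TCF7 then differed by -0.20 (adjusted p 0.895). Of the 30 largest differences named per comparison 2 changed sign, ENST00000509893 in shGATA3 (1.72, adjusted p 0.623) and TCONS_00028248 in shTCF1 (1.46, adjusted p 0.696). Other called differences that changed sign included TCONS_00000605 in shTCF1 (0.58 became -0.40) and TCONS_00028248 in shGATA3 (-0.56 became 2.55). The column medians of the matrix ran from 4.94 to 5.11. Its column for the second control array correlated across probes at 0.82 with that scanner array. The column for the first control array correlated at 0.980 with its own and 0.992 with the other control array. Likewise, the column for the first shGATA3 array correlated at 0.981 with its own and 0.991 with the second shGATA3 array. The matrix was therefore not used for results. GATA3 had no call under any alternative, with differences of -0.10 to 0.04. For the 30 named differences the other settings gave 369 of the same call, 109 weaker and 2 of opposite sign. A block for slide or scan was not run, since all arrays shared 1 of each.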

Other observations

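The lists of known RNAs above had 22, 15, 7 and 13 RNAs tested on catalogue probes. Among these, 4 RNAs were called against control in both hairpin groups, which share the control arrays. Of all probes tested 6.84% were called in shGATA3 and 16.9% in shTCF1, and the share called in both was not computed. The 4 are described because they were called. FAM30A, a lymphoid noncoding RNA, was the only 1 of the 4 to run in opposite directions (differences -3.05 in shGATA3 and 0.77 in shTCF1, adjusted p 0.000995 and 0.0101). MIR17HG, the host transcript of the miR-17-92 cluster of growth-promoting microRNAs, gave VSN levels of 10.52 and 10.09 in control, 8.94 and 9.28 in shGATA3 and 8.30 and 8.16 in shTCF1. It was lower by 1.19 in shGATA3 (difference -1.19, adjusted p 0.0246) and by 2.07 in shTCF1 (difference -2.07, adjusted p 0.00528), while no probe of the other 6 tested microRNA host genes was called lower. NORAD, a cytoplasmic RNA that binds PUMILIO proteins, gave 12.84 and 12.84, then 12.18 and 12.20, then 12.44 and 12.42, with differences of -0.65 (adjusted p 0.0192) and -0.41 (adjusted p 0.0371). RMRP, the RNA of a ribonuclease that processes ribosomal RNA, moved the other way, from 9.59 and 9.60 to 10.34 and 10.34 in shGATA3 and 10.84 and 10.84 in shTCF1 (differences 0.74 and 1.24, adjusted p 0.0130 and 0.00388). For MIR17HG, NORAD and RMRP both arrays of each hairpin group lay on 1 side of both control arrays.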
